A study of Rattus norvegicus with 48 samples.

Results

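Ceramide and sphingolipid synthesis is represented here by 10 enzyme genes, Kdsr, Cers2, Cers4, Cers5, Cers6, Sptlc1, Sptlc2, Degs1, Asah1 and Sgpl1, followed through liver ischemia, reperfusion and ischemic conditioning in the rat. A member was measured where a probe set carried its symbol, or an alias of the same gene, as the only platform annotation. That gave 7 of the 10 genes, each with 1 probe set, out of 14506 genes on the array; Cers6, Sptlc1 and Sptlc2 matched no such probe set and were not analysed here. The set was chosen by the measured values of Kdsr and Cers2 in the comparison of combined conditioning with ischemia and reperfusion alone, so that comparison is described without a test.

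Liver biopsies came from 48 male Wistar rats of 300 to 350 g with free access to food, 1 Affymetrix array per rat; no age is given in the sources used here. The combined group (IPC+IPO, 10 rats) had ischemic preconditioning before and postconditioning after the main ischemia. The preconditioned group (IPC, 10 rats) had a short ischemia of 10 min before it, followed by 10 min of reperfusion. The postconditioned group (IPO, 10 rats) had 3 rounds of brief reperfusion and renewed ischemia straight after it, each phase lasting 30 sec. The ischemia and reperfusion group (IRI, 10 rats) had the main ischemia without conditioning, and the sham group (8 rats) had a laparotomy only. In every group but sham the whole liver was ischemic for 30 min and was sampled after 30 min of reperfusion; all 5 groups had the same anaesthesia and a biopsy of the right lobe. Values are log2 expression per probe set after RMA, a method that subtracts background, equalises array distributions and summarises probes. No level was compared between genes, since each probe set binds with its own strength.

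Sphingolipid synthesis starts at the endoplasmic reticulum, where serine palmitoyltransferase joins serine to an activated fatty acid and KDSR reduces the resulting ketone to dihydrosphingosine. Ceramide synthases then attach a second fatty acid, each isoform preferring its own chain lengths, and DEGS1 introduces the double bond that turns dihydroceramide into ceramide. CERS2 makes the very long chain ceramides that are abundant in liver. Ceramidases such as ASAH1 release sphingosine, which kinases convert to its phosphate, the signalling lipid S1P, and SGPL1 cleaves S1P irreversibly. In reperfused organs ceramide is known mainly as a lipid linked to cell death, and S1P as one linked to survival and to the vessel wall.

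The arrays differed in a way that touches most of these genes. Array spread, which is how widely the values of an array vary from gene to gene (SD, log2 scale), averaged 1.86 ± 0.153 (SD, n = 10) in IPC+IPO, 1.85 ± 0.0827 in IPC, 1.91 ± 0.065 in IPO and 1.77 ± 0.111 in IRI (n = 10 each), and 1.72 ± 0.134 in sham (n = 8). IRI animal 7 and IPC+IPO animal 38 stood apart, with spreads of 1.537 and 1.498 and the lowest mean correlations with the other arrays, 0.888 and 0.933. All 12 hepatocyte markers looked for were measured, with mean levels between 10.49 and 13.25 on the log2 scale. In these bulk samples, fewer cells of a type and less RNA per cell cannot be told apart.

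Kdsr, the reductase of the first steps, was lowest in IRI livers. It ran from 6.84 to 7.62 with a median of 7.22 in IPC+IPO, from 6.58 to 7.22 with a median of 6.97 in IPC, and from 6.92 to 7.58 with a median of 7.18 in IPO. In IRI it ran from 5.49 to 7.03 with a median of 6.74, and in sham from 6.56 to 7.71 with a median of 7.04. Of the 10 IRI animals 4 lay below every animal of the other groups and 6 within their range, and 9 of 10 IPC+IPO animals lay above every IRI animal, but no pair of groups was fully separated. The highest of those 4, IRI animal 2, and sham animal 47 were both at 6.56 after rounding. Group means were 7.26 ± 0.24 in IPC+IPO, 6.98 ± 0.17 in IPC, 7.21 ± 0.20 in IPO, 6.55 ± 0.47 in IRI and 7.10 ± 0.425 in sham (SD). From high to low the order was IPC+IPO, IPO, sham, IPC and IRI. Each step was smaller than the larger SD of its neighbours, the gap of IPC over IRI being 0.43 against an SD of 0.47.

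Cers2 showed the widest span of group means of the measured members, 0.97 on the log2 scale against a median span of 0.30 over all genes. It ran from 8.88 to 10.22 with a median of 9.79 in IPC+IPO, from 8.69 to 9.85 with a median of 9.49 in IPC, and from 8.97 to 9.98 with a median of 9.86 in IPO. IRI livers ran from 7.04 to 9.63 with a median of 8.76, and sham livers from 8.36 to 9.87 with a median of 9.07. The IRI animals reached both lower and over a wider range than any other group, and 6 of 10 IPC+IPO animals lay above all of them. Mean levels were 9.68 ± 0.43 in IPC+IPO, 9.35 ± 0.43 in IPC, 9.68 ± 0.36 in IPO, 8.71 ± 0.77 in IRI and 9.03 ± 0.49 in sham (SD). From high to low the order was IPO, IPC+IPO, IPC, sham and IRI, and no step between neighbours was larger than the larger of their SDs.

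In the comparison that chose these genes, IPC+IPO against IRI, Kdsr differed by 0.71 (1.64-fold) and Cers2 by 0.96 (1.95-fold) on the log2 scale. Of the 7 measured members 0 were fully separated between these groups, beside 0% of all genes. Without IRI animal 7 the differences were 0.59 and 0.78, and without IPC+IPO animal 38 they were 0.76 and 1.05. When the 14 arrays with the narrowest spread were dropped (2 IPC+IPO and 4 IRI arrays among them), they were 0.49 and 0.67. The members not used to pick the set stood at 0.55 (Degs1), 0.54 (Asah1), 0.39 (Sgpl1), 0.04 (Cers4) and -0.10 (Cers5) in the same comparison, again as a description.

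**Figure D1:**
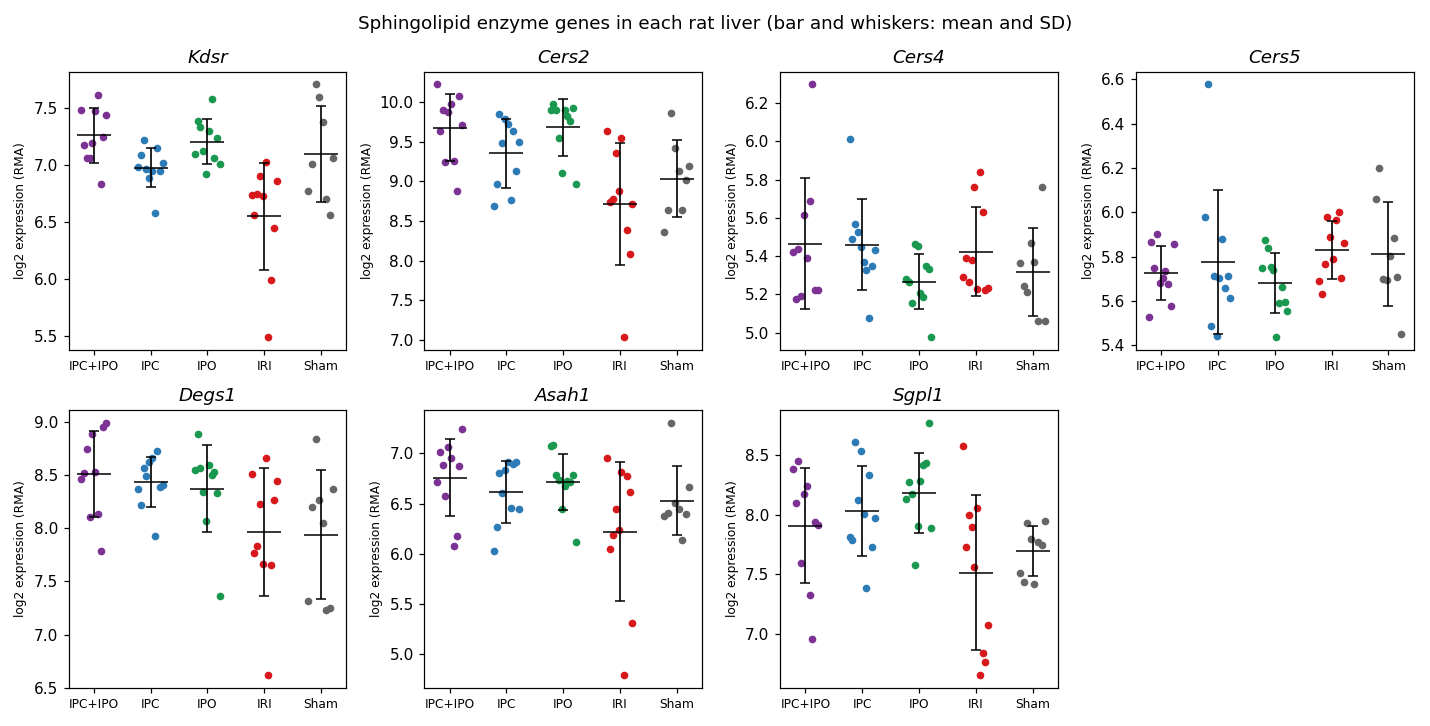
Log2 expression (vertical axes, RMA) of the 7 measured genes in every rat, by group from left to right IPC+IPO, IPC, IPO, IRI and sham; each point is 1 liver and the bar with whiskers is the mean with its SD. The lowest point of Kdsr (5.49), Cers2 (7.04), Degs1 (6.62), Asah1 (4.79) and Sgpl1 (6.66) is the same rat, IRI animal 7, an array of narrow spread (1.537). Cers4 and Cers5 overlap in all 5 groups.

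Postconditioning against ischemia and reperfusion alone was, as deposited, the tested comparison in which most members changed. IPO livers had more mRNA of Kdsr, 1.58-fold (log2 difference 0.66 ± 0.14, SE; limma adjusted p = 0.00984), with 8 of 10 IPO animals above every IRI animal. They also had more of Cers2, 1.96-fold (0.97 ± 0.22, adjusted p = 0.0112), with 7 of 10 animals above. The enzymes that break sphingolipids down rose too, Sgpl1 by 0.67 ± 0.19 (1.59-fold, adjusted p = 0.0193) and Asah1 by 0.50 ± 0.19 (1.41-fold, adjusted p = 0.0473). Of the 7 members, 4 rose and 0 fell at an adjusted p under 0.05, where 12.4% of all genes were called higher and 22.8% either way. The median difference was 0.50 for the members and -0.04 for all genes. Kdsr and Cers2, picked against these same IRI arrays, are part of that count and of the members' median. Of the called genes, Sgpl1 and Asah1 were not used to pick the set.

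The IRI arrays of this comparison are those that picked Kdsr and Cers2, so its values are not independent of that choice. Of the 7 members 0 were fully separated between IPO and IRI, beside 0.062% of all genes. In IPO, Sgpl1 ran from 7.58 to 8.77 with a median of 8.22, against 6.66 to 8.57 with a median of 7.64 in IRI. Asah1 ran from 6.12 to 7.08 with a median of 6.73 in IPO, against 4.79 to 6.95 with a median of 6.34 in IRI. For both genes the range of the IRI animals was wider than the difference between the groups, and 1 IPO animal (Sgpl1) and 2 IPO animals (Asah1) lay above every IRI animal.

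The other 3 members were not called in IPO against IRI. Degs1, the desaturase of the last step to ceramide, differed by 0.41 ± 0.20 (95% interval 0.01 to 0.81, adjusted p = 0.106). The ceramide synthase genes Cers4 and Cers5, whose enzymes favour shorter acyl chains than that of Cers2, stood at -0.16 ± 0.11 (-0.38 to 0.07, adjusted p = 0.253) and -0.15 ± 0.09 (-0.34 to 0.04, adjusted p = 0.205). Their signal was dim, with mean levels of 5.39 (Cers4) and 5.76 (Cers5), at the percentiles 38.2 and 47.5 of all genes.

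Array spread was wider in IPO than in IRI, and was fitted as a covariate. The differences were then 0.44 ± 0.13 for Kdsr (adjusted p = 0.21), 0.45 ± 0.145 for Cers2 (adjusted p = 0.257), 0.26 ± 0.14 for Sgpl1 (adjusted p = 0.538) and 0.09 ± 0.13 for Asah1 (adjusted p = 0.876). In that fit 0 of 7 members passed, and 0.0138% of all genes were called. At an unadjusted p under 0.05 2 members passed, as did 1451 of the 14506 genes. With the 14 narrowest arrays dropped, Kdsr at 0.44 ± 0.10 (adjusted p = 0.0146) and Cers2 at 0.60 ± 0.18 (adjusted p = 0.0383) were called, and Sgpl1 (0.25, adjusted p = 0.328) and Asah1 (0.33, adjusted p = 0.12) were not.

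Kdsr and Cers2 were called with any 1 of the 48 arrays left out, at adjusted p values up to 0.0323 and 0.0397, both without IRI animal 7. Sgpl1 was not called without that animal (0.57 ± 0.19, adjusted p = 0.0627). Asah1 was not called without any of 18 arrays (IRI animals 2, 3, 5, 7, 9 and 10, IPO animals 21 to 24 and 26 to 29, IPC animal 14, IPC+IPO animals 31 and 33 and sham animal 44), with adjusted p between 0.0501 and 0.156 and a difference down to 0.34 without IRI animal 7. Degs1 was called without IPO animal 30 (0.52 ± 0.19, adjusted p = 0.0406). The call of Asah1 was also lost over all probe sets (adjusted p = 0.055), after renewed quantile normalization (0.102) and in a fit of IPO and IRI alone (0.0818).

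Some cell type markers were called in IPO against IRI, where 12.4% of all genes were called higher and 10.4% lower, so a few calls per list are not particular to markers. Of 12 hepatocyte markers 4 rose and 1 fell, and their mean level over markers lay between 12.06 and 12.36 in IPO animals against 11.81 and 12.33 in IRI animals. Of 11 measured Kupffer cell markers 2 rose and 0 fell, with mean levels between 6.98 and 8.37 in IPO against 6.74 and 8.06 in IRI, and with gene means between 6.01 and 9.18. Of 12 stellate cell markers 2 rose, of 8 sinusoidal endothelial markers 1 rose, and of 12 neutrophil markers 1 fell. Of 7 erythroid and platelet markers 1 fell, and of 6 cholangiocyte markers 0 were called. By limma 1 cholangiocyte marker had an unadjusted p under 0.05, as had 6450 of the 14506 genes. With array spread as a covariate no marker of these lists was called, and the median difference of the Kupffer cell markers was -0.045, against 0.33 as deposited. Their part in the members' differences was not tested.

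Preconditioning against ischemia and reperfusion alone called none of the members. Kdsr differed by 0.43 ± 0.14 (95% interval 0.15 to 0.71, adjusted p = 0.162), Cers2 by 0.64 ± 0.22 (0.20 to 1.08, adjusted p = 0.168) and Sgpl1 by 0.51 ± 0.19 (0.13 to 0.90, adjusted p = 0.18). With limma 0 of 7 members passed, beside 0.0276% of all genes; 5 members had an unadjusted p under 0.05, as had 2799 of the 14506 genes. The median of the members was 0.43 and that of all genes was -0.015. Fitted with array spread, Kdsr was at 0.30 ± 0.12, Cers2 at 0.34 ± 0.14 and Sgpl1 at 0.28 ± 0.135, and the median of the members at 0.205. These values use the same IRI arrays as the choice of the set.

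Comparisons of IPO or IPC with sham use neither the IRI nor the IPC+IPO arrays for their differences as deposited, which are free of that choice. Their SEs and p values, and the slope on array spread, come from the fit of all 5 groups and are not free of it. IPO livers had more Cers2 mRNA than sham livers by 0.65 ± 0.23 (1.57-fold, adjusted p = 0.0396), the only member called of 7, where 15.4% of all genes were called higher and 23.2% either way. In IPO 5 of 10 animals lay above every sham animal. Kdsr stood at 0.11 ± 0.15 (95% interval -0.19 to 0.41, adjusted p = 0.586). Sgpl1 was at 0.49 ± 0.20 (adjusted p = 0.0683) and Degs1 at 0.44 ± 0.21 (adjusted p = 0.115). Apart from sham animals 43 and 48, sham arrays had narrower spreads (1.61 to 1.699) than any IPO (1.749 to 1.964) or IPC array (1.709 to 1.932). Spread and group can hence hardly be told apart in these comparisons. With array spread as a covariate Cers2 was at -0.032 ± 0.16 (adjusted p = 0.964), on the other side of 0. Sgpl1 at -0.046 ± 0.16 and Degs1 at -0.17 ± 0.15 were also below 0 in that fit, and 0 members passed, as did 0 genes in all. Cers2 was not called without any of IPO animals 21 to 23 and 26 to 29 or sham animals 41, 42 and 45 to 47, with adjusted p between 0.0556 and 0.0995. As deposited, Sgpl1 was called without IPO animal 24, IPC+IPO animal 38 or sham animal 43 (adjusted p = 0.044, 0.0497 and 0.0458), and Degs1 without IPO animal 30 or sham animal 43 (adjusted p = 0.0399 and 0.0319).

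IPC livers set against sham livers gave no call among the members, beside 6.58% of all genes. Degs1 had the largest difference at 0.50 ± 0.21 (95% interval 0.07 to 0.92, adjusted p = 0.14), and it was called without sham animal 43, the sham array of widest spread (0.63 ± 0.21, adjusted p = 0.0344). Once array spread was a covariate it was at 0.083 ± 0.14 (adjusted p = 0.8). With the 14 narrowest arrays dropped, 6 of them sham, it was at -0.15 ± 0.22 (adjusted p = 0.818), on the other side of 0. That value rests on sham animals 43 (8.85) and 48 (8.37) alone, the sham animals of highest Degs1. Degs1 ran from 7.93 to 8.73 with a median of 8.45 in IPC, against 7.23 to 8.85 with a median of 8.13 in sham, where 3 animals (7.23, 7.25 and 7.31) lay below every IPC animal. Cers2 was at 0.32 ± 0.23 and Kdsr at -0.12 ± 0.15, neither called. By limma 1 of the 7 had an unadjusted p under 0.05, as had 3461 of the 14506 genes. Between the 2 interventions, IPO against IPC, 0 of 7 members passed and 0% of all genes were called. An unadjusted p under 0.05 was found there for 0 members, beside 589 of the 14506 genes. The interval for Kdsr was -0.055 to 0.51 and that for Cers2 -0.115 to 0.77, on the log2 scale.

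Ischemia and reperfusion without conditioning, IRI against sham, gave lower values for 4 of the 7 members without a call. Kdsr was at -0.55 ± 0.15 (adjusted p = 0.0803), Cers2 at -0.32 ± 0.23, Asah1 at -0.31 ± 0.20 and Sgpl1 at -0.18 ± 0.20. With limma 0 members passed, and 0.241% of all genes were called (0.0689% lower). An unadjusted p under 0.05 was found for 1 member, as for 1662 of the 14506 genes. IRI was the group of lowest mean for these 4 genes of the 7, which was so for 18.7% of all genes; the choice of Kdsr and Cers2 against IRI bears on that count. Without sham animal 48 Kdsr was called (-0.56 ± 0.16, adjusted p = 0.0447).

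The IRI arrays are those in which Kdsr and Cers2 were chosen, so their values against sham are not independent of that choice. With array spread as a covariate, 3 members fell in IRI against sham, where 5.89% of all genes were called, 2.96% higher and 2.92% lower. Kdsr fell by 0.62 ± 0.13 (SE, adjusted p = 0.00322), Cers2 by 0.48 ± 0.14 (adjusted p = 0.0344) and Asah1 by 0.44 ± 0.13 (adjusted p = 0.0343) on the log2 scale. Sgpl1 was at -0.31 ± 0.14 (adjusted p = 0.168) and Degs1 at -0.12 ± 0.13 (adjusted p = 0.611). Cers4 and Cers5 stood at 0.16 ± 0.10 and 0.04 ± 0.09. With the 14 narrowest arrays dropped (6 of them sham) and no covariate, Kdsr was at -0.60 ± 0.16 (adjusted p = 0.104), Cers2 at -0.37 ± 0.28 and Asah1 at -0.54 ± 0.215, and none was called. Sham animals 43 and 48 were then the only sham arrays.

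**Figure D2:**
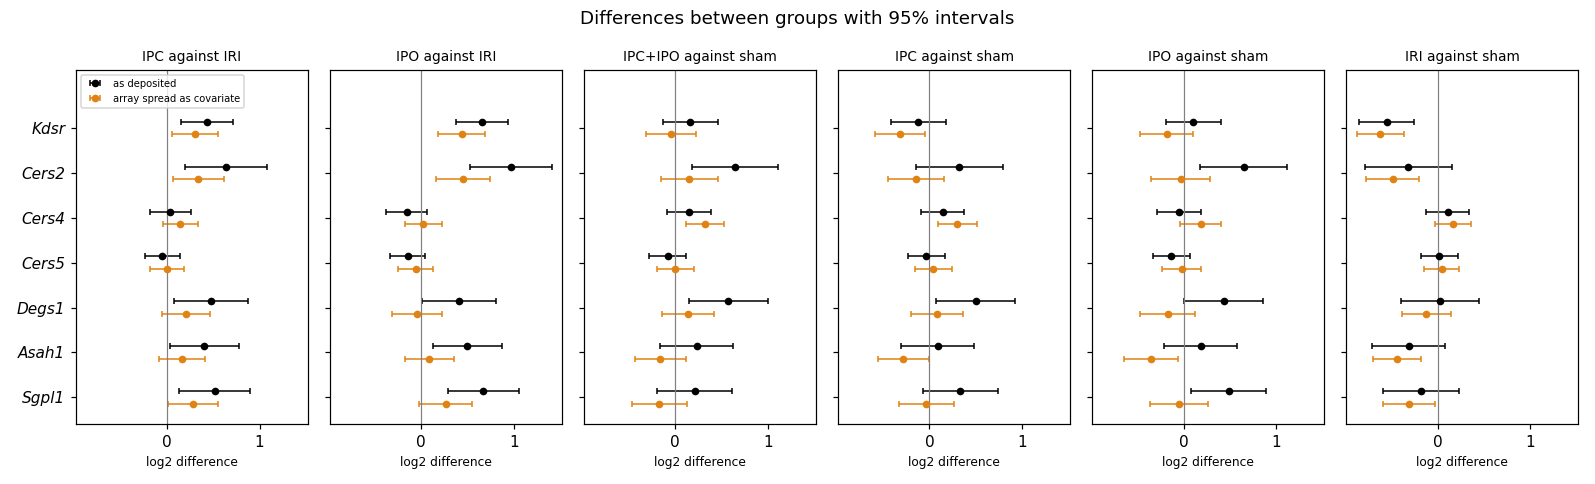
Differences of the 7 genes on the log2 scale (horizontal axes, 95% intervals) in 6 comparisons, black as deposited and orange with array spread as a covariate. In IPO against IRI the black points of Kdsr, Cers2, Asah1 and Sgpl1 lie between 0.50 and 0.97 and the orange ones between 0.09 and 0.45, while in IRI against sham the orange points of Kdsr, Cers2 and Asah1 lie between -0.62 and -0.44.

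Combined conditioning against sham called none of the members, beside 3.62% of all genes. An unadjusted p under 0.05 was found for 2 members, as for 3419 of the 14506 genes. Cers2 was at 0.64 ± 0.23 (adjusted p = 0.0919) and Degs1 at 0.57 ± 0.21 (adjusted p = 0.0978). The fit with array spread put Cers2 at 0.15 ± 0.15 (adjusted p = 0.684) and Degs1 at 0.13 ± 0.14 (adjusted p = 0.705). Cers2 and Kdsr were chosen for their values in these IPC+IPO arrays, so their differences here are not independent of that choice. As deposited, Cers2 was called without IRI animal 7, IPC+IPO animal 37 or 38 or sham animal 43 (adjusted p = 0.0462, 0.0486, 0.0311 and 0.0239), and Degs1 without IPC+IPO animal 38 or sham animal 43 or 48 (adjusted p = 0.0334, 0.0203 and 0.0482). IPC+IPO against IPC and IPC+IPO against IPO gave 0 of 7, as for 0% of all genes each, with 1 (Kdsr) and 0 members at an unadjusted p under 0.05. In the same order, 235 and 482 of the 14506 genes had such a p. Kdsr differed there by 0.28 ± 0.14 and 0.06 ± 0.14.

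Whether postconditioning acted differently on preconditioned livers was tested as an interaction, the IPC+IPO and IRI means less the IPC and IPO means. Sgpl1 had the largest such term among the members, -0.79 ± 0.27 (95% interval -1.33 to -0.25, adjusted p = 0.205). Fitted with array spread, it was -0.405 ± 0.19 (adjusted p = 0.784), and the median term of the members was -0.006, against -0.355 as deposited. In IPC+IPO livers Sgpl1 averaged 7.91 ± 0.48, in IPC 8.03 ± 0.38, in IPO 8.18 ± 0.33 and in IRI 7.52 ± 0.65 (SD, n = 10 each). Limma called 0 of 7 members and 0% of all genes. An unadjusted p under 0.05 was found for 2 members, as for 2942 of the 14506 genes. The term holds both groups of the comparison that picked Kdsr and Cers2, so it is not independent of that choice.

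Members followed array spread to different degrees. Within groups over the 48 arrays, Pearson r with spread was 0.81 for Cers2, 0.79 for Degs1, 0.77 for Asah1, 0.74 for Sgpl1 and 0.55 for Kdsr, and it was negative for Cers4 (-0.58) and Cers5 (-0.34). The median size of that correlation over all genes was 0.59, so Kdsr lay near the typical gene and Cers2 above it, at the percentile 91.8. The members with a positive r had mean signals between the percentiles 65.2 and 94.5 of all genes, and Cers4 and Cers5 lay at 38.2 and 47.5. Spread is computed from the values of the same genes, these members among them, so the correlations are given as a description.

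**Figure D3:**
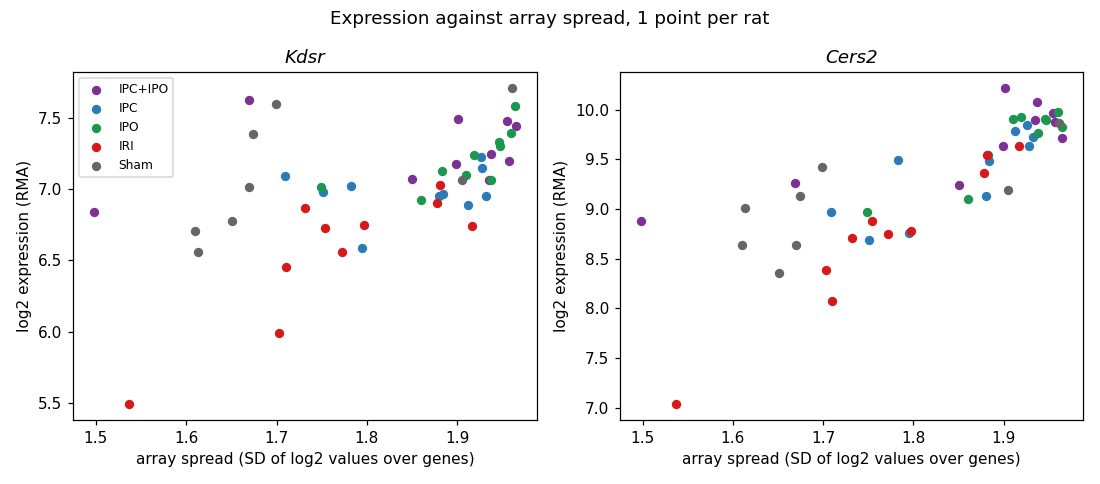
Log2 expression (vertical axes) of Kdsr and Cers2 against array spread (horizontal axes, SD of log2 values over genes), 1 point per rat, coloured by group. Cers2 follows spread more closely (r = 0.81 within groups) than Kdsr (0.55), and the IRI points of Kdsr, with a mean of 6.55, include 4 below every point of the other groups and 6 within their range. The highest of those 4 equals the lowest sham point after rounding (6.56).

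The genes also varied together from animal to animal. Cers2 had within-group correlations of 0.80 with Sgpl1, 0.78 with Degs1, 0.73 with Kdsr and 0.72 with Asah1 over the 48 arrays. Once the common slope on spread was removed they were 0.53, 0.40, 0.57 and 0.28. Kdsr and Degs1 had 0.73 and then 0.57, whereas Kdsr and Asah1 had 0.42 and then -0.01. Cers4 and Cers5 had correlations between -0.41 and 0.12 with every other member before that step.

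Over the same 48 arrays, and with group means and the slope on spread removed, the named genes most like Kdsr were Nucks1 (r = 0.745), Got1, the cytosolic aspartate aminotransferase gene (0.742), and Slc16a10, which codes for an aromatic amino acid transporter (0.698). Those most like Cers2 were Rab10, a small GTPase gene of membrane traffic (0.818), Vapa, a gene of contact sites of the endoplasmic reticulum (0.814), and Capza1, a gene of an actin capping subunit (0.791). Got1 averaged 9.42 ± 0.63 in IPC+IPO, 9.10 ± 0.43 in IPC, 9.27 ± 0.17 in IPO, 8.65 ± 0.67 in IRI and 9.18 ± 0.87 in sham (SD). Rab10 averaged 8.54 ± 0.36 in IPC+IPO, 8.43 ± 0.39 in IPC, 8.69 ± 0.23 in IPO, 7.79 ± 0.87 in IRI and 8.06 ± 0.49 in sham. For both genes IRI was the lowest of the 5 groups.

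RefSeq promoter windows on the GRCr8 build, from 250 bases before to 50 after the gene start, were at hand for 9 of the 10 genes, Asah1 being the exception. Those of Kdsr (chr13:23408716-23409015, minus strand), Cers2 (chr2:185579261-185579560, plus strand) and Sgpl1 (chr20:29636829-29637128, minus strand) are shown, since these are the genes called in IPO against IRI that have one. Each is written 5′ to 3′ along the gene, with capitals for matches on either strand to the GC box GGGCGG, the CCAAT box CCAAT or the ETS core CGGAAG.
Kdsr: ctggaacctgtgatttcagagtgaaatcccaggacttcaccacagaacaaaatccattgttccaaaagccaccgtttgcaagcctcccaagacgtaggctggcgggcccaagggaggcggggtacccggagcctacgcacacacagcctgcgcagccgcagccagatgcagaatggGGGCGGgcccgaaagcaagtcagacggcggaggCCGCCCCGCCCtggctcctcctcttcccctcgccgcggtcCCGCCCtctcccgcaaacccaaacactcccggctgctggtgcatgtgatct
Cers2: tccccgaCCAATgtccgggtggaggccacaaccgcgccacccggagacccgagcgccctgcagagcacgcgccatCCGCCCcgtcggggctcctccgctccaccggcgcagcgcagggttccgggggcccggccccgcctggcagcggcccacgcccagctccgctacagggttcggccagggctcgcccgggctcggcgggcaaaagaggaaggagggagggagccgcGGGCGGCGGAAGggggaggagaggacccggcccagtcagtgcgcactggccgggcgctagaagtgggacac
Sgpl1: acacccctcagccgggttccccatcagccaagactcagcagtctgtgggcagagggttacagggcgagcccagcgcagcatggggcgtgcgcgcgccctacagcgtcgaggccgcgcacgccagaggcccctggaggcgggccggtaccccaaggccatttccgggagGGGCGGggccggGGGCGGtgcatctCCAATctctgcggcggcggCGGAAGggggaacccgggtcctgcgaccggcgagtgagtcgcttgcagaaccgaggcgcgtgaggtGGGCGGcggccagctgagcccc
The GC box occurred 4 times in the Kdsr window (a pair of them sharing 1 base), 2 times in that of Cers2 and 3 times in that of Sgpl1, and 33.1% of the 33469 windows of all genes held it. Kdsr had no CCAAT box, Cers2 and Sgpl1 had 1 each (37.5% of all windows), and both of these had 1 ETS core (16.6%). In the Cers2 window a GC box and the ETS core stand side by side without overlap. The E-box CACGTG, the hypoxia core ACGTG contained in it, the cyclic AMP element TGACGTCA and the AP-1 site TGACTCA were searched as well and these letters are not in the 3 windows; 6.42%, 19.3%, 1.83% and 4.63% of all windows held them. The windows had 63.3% (Kdsr), 76% (Cers2) and 73% (Sgpl1) G and C, against a median of 51.7% over all windows.

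Beyond the enzymes, 54 of 70 other listed sphingolipid genes were measured, and 8 rose and 3 fell in IPO against IRI, beside 12.4% and 10.4% of all genes. Their median difference was 0.17 against -0.04 for all genes. Next to synthesis, Sptlc3, a subunit of serine palmitoyltransferase, fell by 0.35 ± 0.13 (adjusted p = 0.0458), 1 of 8 measured genes of its list. Its signal was dim, with means of 4.19 in IPO and 4.54 in IRI. With array spread as a covariate Sptlc3 was at -0.10 ± 0.10. Among 6 genes of fatty acyl chain elongation 3 rose, Hsd17b12 by 0.57 ± 0.15, Elovl5 by 0.54 ± 0.155 and Tecr by 0.62 ± 0.19. Of 8 sphingomyelin genes 2 rose, Smpd1, the acid sphingomyelinase, by 0.62 ± 0.20 and Cert1, the ceramide transfer protein, by 0.62 ± 0.23. Of 16 glycosphingolipid genes 2 rose, Gla by 0.76 ± 0.21 and the saposin precursor gene Psap by 0.46 ± 0.14.

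In the list of ceramidase and S1P genes 1 rose and 2 fell in IPO against IRI, beside 12.4% and 10.4% of all genes. Its ceramidase genes were not called, with Asah2 at -0.225 ± 0.09 (adjusted p = 0.056), Acer1 at -0.19 ± 0.10 (adjusted p = 0.121) and Acer2 at -0.05 ± 0.13 (adjusted p = 0.778). Of 16 measured in this list, the receptor gene S1pr1 rose by 0.64 ± 0.20 (adjusted p = 0.0275), while the sphingosine kinase gene Sphk1 fell by 0.36 ± 0.10 (adjusted p = 0.0158) and the receptor gene S1pr4 by 0.34 ± 0.11 (adjusted p = 0.0287). Sphk1 averaged 5.5 ± 0.21 in IPC+IPO, 5.58 ± 0.23 in IPC, 5.37 ± 0.16 in IPO, 5.73 ± 0.21 in IRI and 5.72 ± 0.22 in sham (SD). With array spread as a covariate none of these 11 called genes passed, and Sphk1 was at -0.22 ± 0.09 and S1pr4 at -0.17 ± 0.10. Both had dim signals, S1pr4 with means of 4.75 in IPO and 5.09 in IRI.

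**Figure D4:**
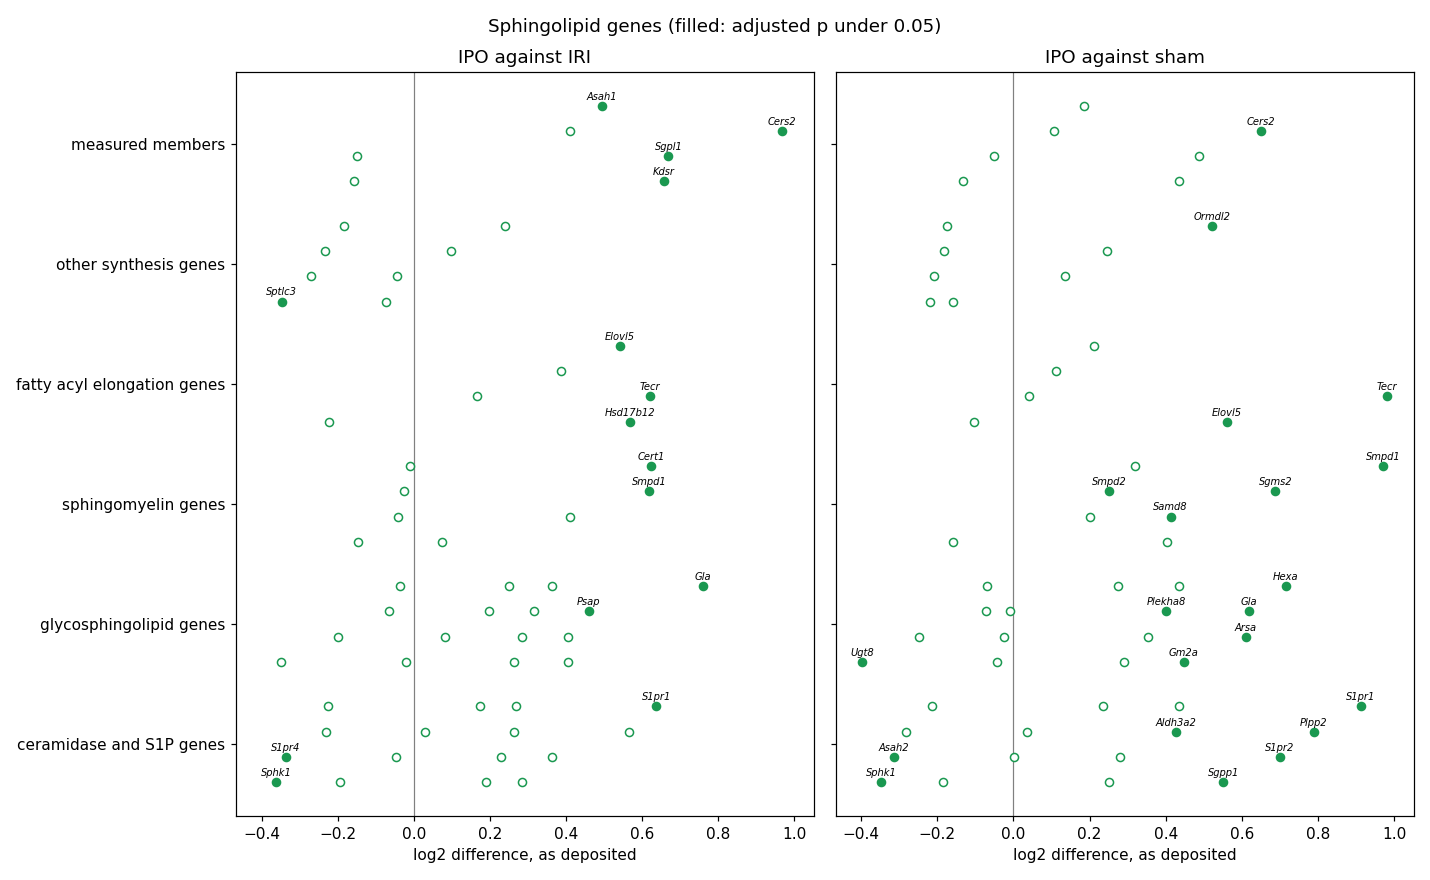
Differences on the log2 scale (horizontal axes, as deposited) of the 7 measured members and of 54 other sphingolipid genes in 5 lists, in IPO against IRI and in IPO against sham; filled and named points have an adjusted p under 0.05. In IPO against IRI 4 members and 11 of the other genes are filled, and in IPO against sham Cers2 and 20 of the other genes.

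Set against sham, several genes of the list named sphingomyelin genes were called higher in the conditioned groups, 2 of 8 measured in IPC+IPO, 5 of 8 in IPC and 4 of 8 in IPO. That list also holds genes related by name or transport, such as Samd8, Smpdl3a and Cert1. In IRI against sham 0 of these 8 were called by limma. Of them 6 were above 0 and 3 had an unadjusted p under 0.05, beside 8467 and 1662 of the 14506 genes. The list's median difference was 0.285 in IPC+IPO, 0.40 in IPC, 0.36 in IPO and 0.28 in IRI, against the same sham arrays. Smpd2, a sphingomyelinase gene, was called in IRI when array spread was a covariate (0.25 ± 0.07, adjusted p = 0.0369). That fit called 2 of the 54 other genes higher and 3 lower in IRI against sham, beside 5.89% of all genes called. As deposited, 17 of all 54 other genes rose and 3 fell in IPO against sham (beside 15.4% and 7.76% of all genes). In IPC 9 rose and 1 fell (beside 5.6% and 0.986% of all genes), and in IPC+IPO 5 rose and 0 fell (beside 3.05% and 0.565%). Smpd1 rose by 0.88 ± 0.21 in IPC+IPO (adjusted p = 0.0213), by 0.88 ± 0.21 in IPC (adjusted p = 0.0121) and by 0.97 ± 0.21 in IPO (adjusted p = 0.00399), each against the same sham arrays. Sgms2, a sphingomyelin synthase, rose by 0.65 ± 0.18, 0.66 ± 0.18 and 0.69 ± 0.18 in the same order. With array spread as a covariate Smpd1 was called in IPC alone of these 3 (0.42 ± 0.12, adjusted p = 0.0444), where 1.9% of all genes were called, 0.951% higher and 0.944% lower. Its value was close to that in IPC+IPO, at 0.40 ± 0.12 (adjusted p = 0.0953), and in IPO it was 0.30 ± 0.125 (adjusted p = 0.381). Tecr and the receptor gene S1pr2 also rose in all 3 comparisons as deposited, Tecr by 0.825 to 0.98 and S1pr2 by 0.63 to 0.73. Asah2, the neutral ceramidase, fell by 0.31 ± 0.09 in IPC and by 0.31 ± 0.09 in IPO, with a dim signal (mean 5.15 in sham). None of the calls of Sgms2, Tecr, S1pr2 and Asah2 against sham was kept with array spread as a covariate. In that fit Tecr was at 0.39 in IPC+IPO, 0.44 in IPC and 0.38 in IPO, and S1pr2 at 0.37, 0.49 and 0.35.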

How the data were processed

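Liver RNA of 48 rats was measured on Affymetrix arrays, 1 per animal. The deposited values are log2 expression per probe set, made by the authors with RMA in Affymetrix Expression Console, per the submitters' processing notes; no version, filter or batch is given in the sources used here. RMA equalises array quantiles, which can damp global shifts. All 29215 probe sets had values; 15310 had 1 gene symbol, 323 several and 13582 none here. Each of 14506 genes was represented by its probe set of highest mean. limma 3.58.1 in R 4.3.3 (lmFit, eBayes) compared the 5 groups in 1 fit, two-sided, with Benjamini-Hochberg adjusted p over all genes and a threshold of 0.05. The members, lists, comparisons and alternatives were chosen with earlier results of these data known. Named genes were all members, other listed sphingolipid genes called in IPO against IRI (at most 3 of smallest p per list) and the 3 genes most like Kdsr and Cers2. Of the listed genes called against sham some were named, and the others enter the counts alone. Alternatives were array spread as a covariate, array weights, fits of the 2 groups alone, a robust trended variance, all probe sets, no dimmest 33.3% of genes, the probe set of largest variance, quantile normalization, median centring, dropping the 14 narrowest arrays and leaving out each array. The fit was tested on simulated data. The number of arrays limits precision. Figures used matplotlib 3.10.9 in Python 3.11.15.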

Additional observations from a re-analysis of the deposited data

Results flagged for a closer look

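Of 35 sets of values (7 genes in 5 groups), 6 held an animal whose gap to the nearest other animal, divided by the whole range of the group, was above Dixon's 95% critical value for a group of its size. Chance flags about 1 in 20 such sets. Kdsr was low in IPC animal 17, at 6.58 against 6.89 in the next animal (ratio 0.476). Cers4 was high in IPC+IPO animal 38, at 6.30 against 5.69 (ratio 0.543), and in IPC animal 11, at 6.01 against 5.57 (ratio 0.475). Cers5 was high in IPC animal 12, at 6.58 against 5.98 (ratio 0.527). Degs1 was low in IRI animal 7, at 6.62 against 7.65 (ratio 0.505). Asah1 was high in sham animal 43, at 7.30 against 6.67 (ratio 0.545). IRI animal 7 and IPC+IPO animal 38 are the arrays of narrowest spread in the series, and sham animal 43 has the widest spread of the sham arrays (1.961).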

How the results depend on the processing

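Counts of called members depended on the treatment of array spread. With it as a covariate 0 members were called in IPO against IRI (4 as deposited) and 0 in IPO against sham (1 as deposited), but 3 in IRI against sham (0 as deposited); Cers2 in IPO against sham turned to -0.032. With the 14 narrowest arrays dropped the counts were 2 in IPO against IRI and 0 in IPO against sham, and after renewed quantile normalization 0 in IPO against sham and 1 in IRI against sham. Array weights gave 3 members in IPC against sham, 5 in IPO against sham, 1 in IRI against sham, 4 in IPC+IPO against sham and 1 in IPC against IRI, with 7051, 9749, 1894 and 9007 genes called in all in the comparisons with sham (955, 3364, 35 and 525 as deposited). A fit of IPO and sham alone called 2 members. The covariate fit called 275, 0, 854 and 34 genes in those comparisons and 2 in IPO against IRI (3307 as deposited), and quantile normalization 1365 in IPO against sham, 259 in IRI against sham, 313 in IPC+IPO against sham and 1383 in IPO against IRI. Without the 14 narrowest arrays the genes called were 7 in IPC, 0 in IPO, 3 in IRI and 0 in IPC+IPO against sham and 1077 in IPO against IRI. Of the 14, 6 were sham arrays, so the sham group then held animals 43 and 48 alone. Fits of the groups compared alone called 5455 genes in IPO, 0 in IRI and 12 in IPC+IPO against sham and 0 in IPC against IRI (4 as deposited). Array weights called 568 genes for IPC and 6098 for IPO when set against IRI, 82 in IPO against IPC, 12 in IPC+IPO against IPO and 189 in the interaction (0 as deposited in these 3, and 1 in the interaction without the 14 narrowest arrays), and without the dimmest genes 57 were called in IRI against sham. In IPC against IRI the covariate and the robust trended variance called 0 and quantile normalization 2, and the last called 1 in IPC+IPO against IPC (0 as deposited). The share of calls that were higher was 73.8% in IPC against sham and 53.3% in IRI against sham after that normalization (85% and 71.4% as deposited), and 73.8% in IPC+IPO against sham (84.4%), and with median centring 83.3% of 6 calls in IPC against IRI (50% of 4). Leaving out 1 array at a time, the members called ranged from 0 to 1 in IPC against sham, 0 to 3 in IPO against sham, 0 to 1 in IRI against sham, 0 to 2 in IPC+IPO against sham and 2 to 5 in IPO against IRI, and were 0 in the other 5 comparisons. The cause was not tested. The trended and robust variance model, no dimmest 33.3% of genes, the probe set of largest variance and median centring changed no call among the members. Of 70 differences, 48 had the same direction and 22 the other with the covariate. No paired analysis was possible because each animal number occurs in 1 group alone. Dim signals limit Cers4 and Cers5, and among the other sphingolipid genes named Sptlc3, Sphk1, S1pr4 and Asah2.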
